A study of Homo sapiens with 9 samples.

Results

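The genes described here encode the proteins of the mitochondrial ribosome, and were taken from the gene tables of A549 cells by name: every row with a symbol MRPL or MRPS followed by a number, with an optional A, B or C after the number for MRPS. This gave 74 genes, 45 named for the large subunit and 29 for the small subunit, among the 20771 genes that were tested. All 74 passed the filter on low values, which asked for 3 or more libraries with an FPKM of 0.1 or higher. FPKM counts fragments relative to the length of the transcript and the depth of the library. Of the 74, 62 had a row of their own and 12 stood on a row joined with another gene, and for these 12 the value is that of the whole row. A549 is an established human lung cancer cell line. The cells were transfected for 48 h with a scrambled control siRNA (siCtrl) or with one of the siRNAs siCyclin K#1 and siCyclin K#2, which both target CCNK, and total RNA of 3 libraries of each group was sequenced, 9 in all. The labels name no other treatment, and all libraries come from the same line. The labels do not say whether the 3 libraries of a group came from separate cultures, so p-values measure the spread between these libraries, which may be technical. Where both siRNAs form 1 group, that spread also holds any difference between the siRNAs.

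Mitochondria keep a ribosome of their own, made of a large and a small subunit, which translates the few mRNAs of the mitochondrial genome. These mRNAs encode subunits of the respiratory chain and of ATP synthase. The ribosomal RNAs come from mitochondrial DNA, whereas every protein of the particle is encoded in the nucleus, translated in the cytosol and imported. Some of these proteins have bacterial counterparts, and others occur only in mitochondrial ribosomes. The names do not always give the place of the protein: MRPS18A and MRPS30 are known as parts of the large subunit, and MRPS36 is known as a component of the 2-oxoglutarate dehydrogenase complex. Cyclin K, the product of CCNK, is the regulatory partner of the kinases CDK12 and CDK13, which phosphorylate RNA polymerase II.

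The depth that the steps of the FPKM values give was 31333959 to 33768274 reads per library. CCNK had an FPKM of 6.90, 7.06 and 7.10 in the siCtrl libraries, 0.891, 0.816 and 0.720 after siCyclin K#1, and 0.809, 0.920 and 0.802 after siCyclin K#2. It fell by 2.94 ± 0.10 (SE) on the log2 scale over both siRNAs (adjusted p = 1.7e-07 with limma; exact two-sided permutation p = 0.0238, the smallest that 6 libraries against 3 can give), and the difference between the siRNAs was -0.06 (adjusted p = 0.72 with limma). Of the epithelial markers searched, KRT8 lay between 49.7 and 105 FPKM and KRT18 between 69.8 and 91.0, while EPCAM (at most 0.279) and KRT19 (at most 0.107) were at or near 0. ALDH1A1, a gene known for high levels in A549, lay between 529 and 982. Of 8 markers of blood, endothelial, fibroblast and muscle cells 7 had a row, and their summed FPKM was 1.41 to 1.59 in siCtrl, 5.77 to 5.94 after siCyclin K#1 and 2.05 to 2.55 after siCyclin K#2. PTPRC, PECAM1, VWF and COL1A2 were at or near 0, and PDGFRB was at most 0.136. The mean of CD14 was 0.909 FPKM in siCtrl, 0.582 after siCyclin K#1 (log2 fold change -0.56, adjusted p = 0.035 with limma) and 0.744 after siCyclin K#2. The rise of the sum went with ACTA2, with means of 0.475, 5.09 and 1.41 in the same order. ACTA2 encodes smooth muscle actin and rose by 2.29 on the log2 scale over both siRNAs (adjusted p = 0.0073 with limma). The part of this in the results below was not tested. In bulk RNA, fewer cells of a type and less RNA per cell cannot be told apart.

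In control cells the levels of the 74 genes differed widely. The highest were MRPS35 (64.1 ± 2.59 FPKM, SD, n = 3), MRPS26 (54.5 ± 2.01) and MRPL51 (53.8 ± 0.28). MRPS26 and MRPL51 differed by less than the spread of the 3 libraries of MRPS26, so their order is not resolved. The lowest were the row of MRPS6, which also holds SLC5A3 and 2 unnamed loci (2.65 ± 0.06), MRPS33 (3.08 ± 0.17) and the row of MRPL42 with the pseudogene RN7SL737P (3.13 ± 0.43), and the last 2 did not differ beyond their spread. The median was 15.3 FPKM for the large subunit genes and 12.4 for the small subunit genes, with quartiles of 8.80 to 28.6 and 7.29 to 23.1. The proteins are thought to be present in 1 copy in most positions of the particle, but their mRNA levels, which FPKM puts on a per length scale, were far from equal. Summed over the 74 genes, FPKM was 1408, 1380 and 1359 in siCtrl, 1250, 1191 and 1246 after siCyclin K#1, and 1365, 1356 and 1378 after siCyclin K#2. The siCyclin K#1 sums lay below all others, and the siCyclin K#2 sums overlapped those of siCtrl. The FPKM of all features also differed between the groups, with totals of 260555 to 262993 per library in siCtrl, 249564 to 251584 after siCyclin K#1 and 246001 to 247212 after siCyclin K#2. As a percent of that total, the 74 genes made up 0.522 to 0.536% in siCtrl, 0.477 to 0.498% after siCyclin K#1 and 0.548 to 0.558% after siCyclin K#2. On this scale siCyclin K#1 was again lowest, but siCyclin K#2 lay above siCtrl without overlap.

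**Figure D1:**
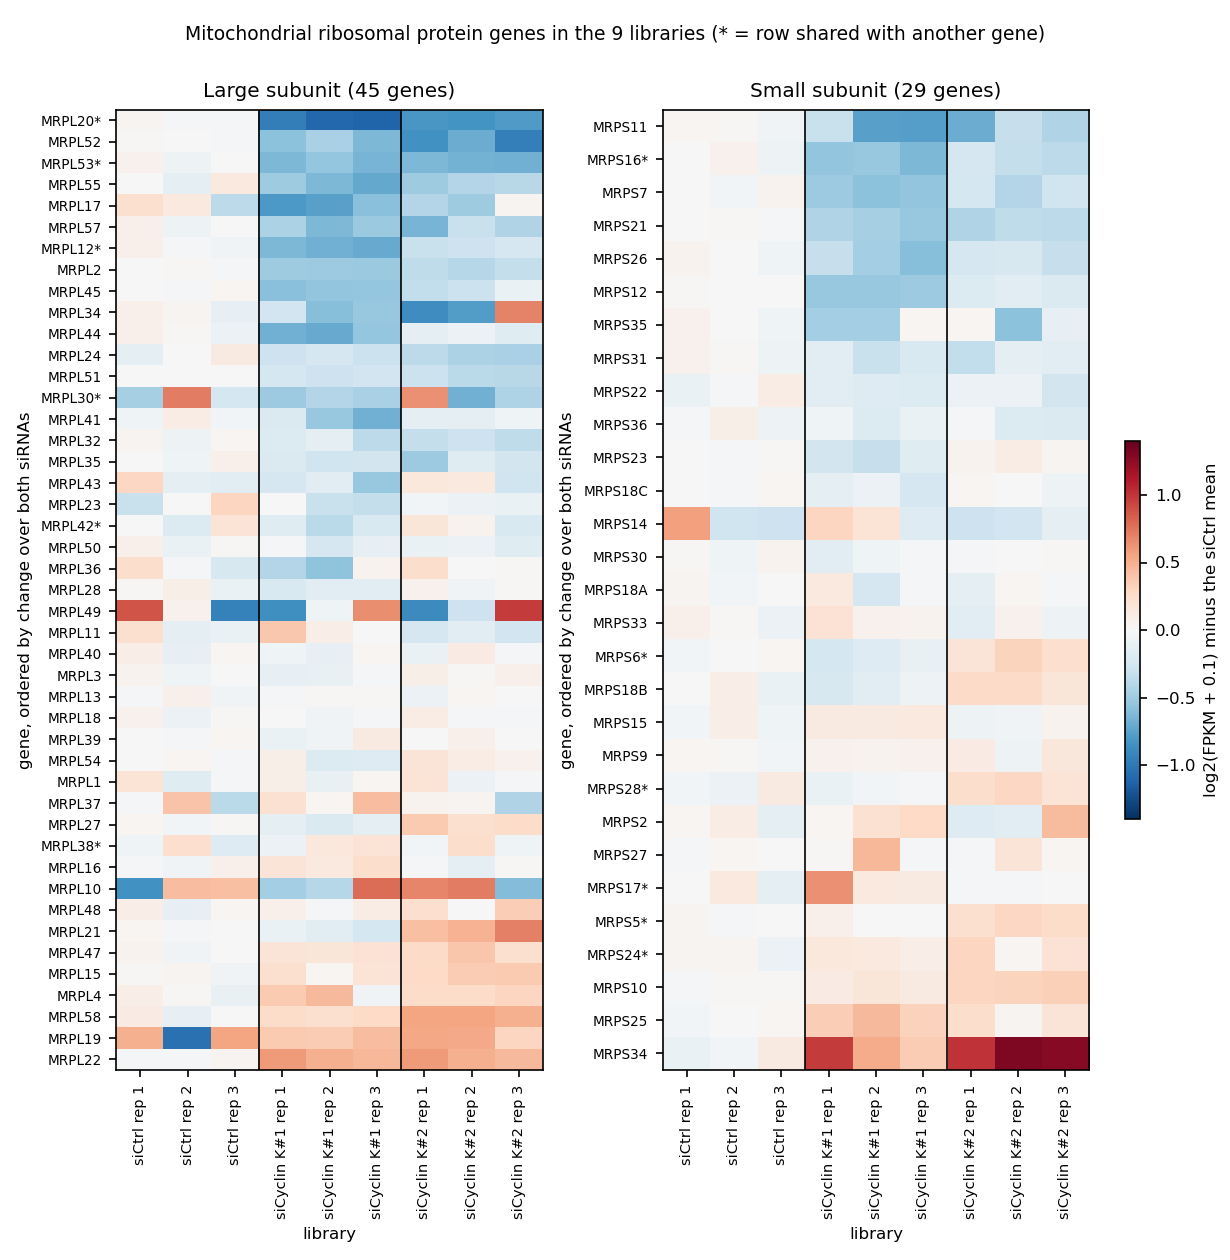
Heat map of log2(FPKM + 0.1) minus the mean of the 3 siCtrl libraries, for the 45 large and 29 small subunit genes (lines) in the 9 libraries (columns); an asterisk marks a row shared with another gene. Blue cells at the top and red cells at the bottom are the genes with the lowest and highest values after siCyclin K, and lines such as MRPL49 and MRPL10 vary as much within a group as between groups.

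The first comparison asked which of these genes changed when CCNK was silenced, with both siRNAs as 1 group. The 74 genes did not move as a block. Of them 19 fell, 6 rose and 49 did not pass an adjusted p of 0.05. Of all 20771 tested genes 11.7% fell and 17.3% rose, while of the 74 genes 25.7% fell and 8.11% rose. The tested genes include many at low levels, whereas all 74 had a mean FPKM of at least 1. In a fit of the 11245 genes at that level 18.8% fell and 27.3% rose, beside 19 and 7 of the 74. The median log2 fold change of the 74 was -0.05, and that of all tested genes was 0.06. Changes were small: 4 of the 74 had a fold change over 1.5 with an adjusted p under 0.05 (1 up and 3 down), against 18.3% of all tested genes, and 2.27% of tested genes but 0 of the 74 passed the study's thresholds, a fold over 3 at p under 0.01 without adjustment. No gene of the 74 reached a fold of 3 at any p, as the largest log2 fold change was -0.94. The study states the fold over 3 in its methods, but its results text speaks of at least a 2-fold change, a rule not counted here. At an unadjusted p under 0.05 the same limma fit gave 21 lower and 8 higher genes. Of all 20771 tested genes, 3403 were lower and 4789 higher at that p. The large subunit had 12 lower and 4 higher of 45 genes and the small subunit 7 lower and 2 higher of 29. Among the 62 genes with a row of their own 15 were lower and 6 higher. All 6 siCyclin K libraries lay below all 3 siCtrl libraries for 20 of the 74 genes and above them for 6, while the same held for 13.8% and 19.1% of all tested genes.

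Among the large subunit genes that fell, MRPL20 showed the largest change. MRPL20 (ENSG00000242485, chr1:1401908-1407313 of GRCh38, minus strand) shares its row with the pseudogene RN7SL657P, which lies within it. Its row had 21.5, 20.6 and 20.6 FPKM in siCtrl, 10.6, 9.71 and 9.51 after siCyclin K#1, and 11.9, 11.7 and 11.98 after siCyclin K#2. The groups did not overlap, and the row fell by 0.94 ± 0.09 (SE) on the log2 scale (adjusted p = 5.9e-05). MRPL52 (ENSG00000172590, chr14:22829879-22835037, plus strand), which encodes a protein that occurs only in mitochondrial ribosomes, had 4.18, 4.14 and 4.11 FPKM in siCtrl, 2.76, 3.01 and 2.64 after siCyclin K#1, and 2.25, 2.53 and 2.08 after siCyclin K#2. It fell by 0.69 ± 0.12 (adjusted p = 0.0019), again without overlap, although its values came out as whole reads in only 3 of 9 libraries. MRPL53, on a row with CCDC142, fell by 0.63 ± 0.07 (adjusted p = 0.00019), from 5.27 ± 0.25 to 3.42 ± 0.145 and 3.30 ± 0.06 FPKM after siCyclin K#1 and siCyclin K#2. MRPL55 (ENSG00000162910, chr1:228106679-228109312, minus strand) fell by 0.52 ± 0.10 (adjusted p = 0.003), with 7.11, 6.54 and 7.86 FPKM in siCtrl and 4.31 to 5.44 in the 6 siCyclin K libraries. MRPL57 fell by 0.50 ± 0.09 (adjusted p = 0.0019), from 15.3 ± 0.74 FPKM to 10.5 ± 0.68 and 11.1 ± 1.31.

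In the small subunit MRPS11 (ENSG00000181991, chr15:88467453-88480773, plus strand), whose bacterial counterpart sits on the platform of the subunit, had 7.80, 7.76 and 7.41 FPKM in siCtrl. It had 6.17, 4.48 and 4.44 after siCyclin K#1 and 4.68, 6.12 and 5.71 after siCyclin K#2. The spread within each siRNA was wide, but all 6 values lay below the 3 of siCtrl, and the gene fell by 0.54 ± 0.13 (adjusted p = 0.0099). The other small subunit rows that fell were MRPS16 (with DNAJC9), MRPS7, MRPS12, MRPS21, MRPS26 and MRPS31, by 0.22 to 0.44. MRPS12 is the counterpart of the bacterial protein at the decoding site, and it overlaps SARS2 on the opposite strand. Whether the counting used strand is not given in the sources used here, and without it reads of such pairs cannot be told apart. In all, 35 of the 74 genes overlap an annotated gene of the opposite strand, among them 10 of the 25 that passed: MRPL2, MRPL20, MRPL32, MRPL47, MRPL51, MRPS7, MRPS11, MRPS12, MRPS16 and MRPS31. The other large subunit genes that fell were MRPL2, MRPL12 (with SLC25A10), MRPL24, MRPL32, MRPL35, MRPL45 and MRPL51, by 0.28 to 0.47. MRPL2 is the counterpart of a core protein near the peptidyl transferase centre, and MRPL45 lies near the exit tunnel, where the ribosome meets the inner membrane.

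The largest rise was that of MRPS34 (ENSG00000074071, chr16:1771890-1773155, minus strand), a small subunit protein without a bacterial counterpart. It had 32.5, 34.01 and 38.1 FPKM in siCtrl, 68.5, 49.9 and 44.5 after siCyclin K#1, and 70.1, 86.0 and 84.5 after siCyclin K#2. The groups did not overlap and the gene rose by 0.91 ± 0.21 (adjusted p = 0.0085), but the siCyclin K#1 libraries were 1.54-fold apart, and the values came out as whole reads in only 1 of 9 libraries. MRPL22 (ENSG00000082515, chr5:154941070-154969411, plus strand), whose counterpart lines the peptide exit tunnel, rose by 0.52 ± 0.07 (adjusted p = 0.0003), with 5.89, 5.86 and 6.09 FPKM in siCtrl and 8.15 to 9.06 in the siCyclin K libraries. Its libraries within a group were close to each other, and the log2 fold change was 0.52 with each siRNA alone. MRPL58 (ENSG00000167862, chr17:75012670-75021261, plus strand), a peptidyl-tRNA hydrolase that is built into the large subunit and rescues stalled ribosomes, had 31.0, 26.4 and 28.8 FPKM in siCtrl, 34.2, 33.6 and 34.8 after siCyclin K#1, and 42.2, 42.0 and 40.6 after siCyclin K#2. It rose by 0.39 ± 0.10 (adjusted p = 0.013). MRPL15, MRPL47 and MRPS10 rose by 0.24 ± 0.08, 0.24 ± 0.06 and 0.23 ± 0.07 (adjusted p = 0.045, 0.019 and 0.034).

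**Figure D2:**
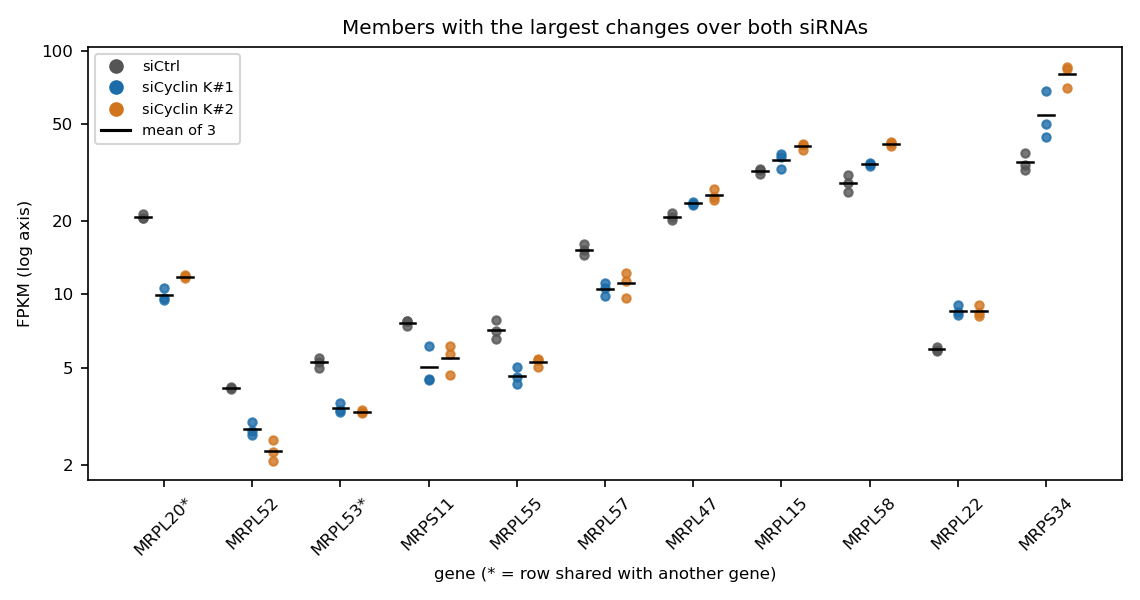
FPKM (log axis) of 11 genes for each siCtrl, siCyclin K#1 and siCyclin K#2 library (points) with the mean of 3 (line). The genes are those with the largest falls and the largest rises among those that passed over both siRNAs. Falls and rises were picked separately, so falls larger than some of the rises shown, such as that of MRPL12, are left out. MRPL20, MRPL52, MRPL53, MRPS11, MRPL55 and MRPL57 lie below siCtrl in all 6 siCyclin K libraries, MRPL47, MRPL58, MRPL22 and MRPS34 lie above it, and MRPL15 overlaps siCtrl in 1 library.

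The counts over both siRNAs depended on single control libraries and on scaling, and the shares of all tested genes moved as well. Without siCtrl replicate 1, 12 of these genes were lower and 4 higher, beside 7.92% and 12.9% of all tested genes. Without siCtrl replicate 2 the counts were 16 and 2 (7.97% and 12.9% of all tested genes), and without siCtrl replicate 3 they were 15 and 3 (8.1% and 13.2%). Median-ratio rescaling gave 20 lower and 2 higher, where 14.5% of all tested genes were lower and 14.8% higher. Of the 25 genes that passed, 14 kept the call under all 19 alternatives and 11 lost it under at least 1. Of the falls, 7 lost it without siCtrl replicate 1, namely MRPL12, MRPL32, MRPL35, MRPL45, MRPS12, MRPS26 and MRPS31, with adjusted p-values of 0.051 to 0.16. MRPL45, MRPS12 and MRPS31 also lost it without siCtrl replicate 2 or 3, and MRPL32 and MRPL35 without siCtrl replicate 3. MRPS31 also lost it without siCyclin K#1 replicate 2 or 3 or siCyclin K#2 replicate 1, and MRPS12 without siCyclin K#1 replicate 3. Among the rises MRPL15 lost it when any of 8 of the 9 libraries was left out, MRPS10 without any 1 of the siCtrl or siCyclin K#2 libraries, MRPL47 without siCtrl replicate 2 or 3, and MRPL58 without siCtrl replicate 2. All 4 of these rises lost it after rescaling (adjusted p = 0.26, 0.25, 0.18 and 0.074).

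Promoters are shown to set the genes that fell beside those that rose. They belong to the genes with the 6 largest falls and the 3 largest rises among those that passed over both siRNAs. Short motifs of factors known at genes for mitochondrial proteins are marked: NRF1 (searched as GCGCANGCG), ETS factors such as GABPA (CCGGAAG), YY1 (AAGATGGCG) and the E-box (CACGTG). RefSeq promoters of GRCh38.p14, from 250 bases before to 50 after the start site, were found for 65 of the 74 genes and searched on both strands. The promoter set used here held no entry under the symbols MRPL2, MRPL10, MRPL13, MRPL15, MRPL21, MRPL23, MRPL35, MRPS28 and MRPS36. The last 100 bases before the start site follow for the 6 genes that fell (MRPL20, chr1:1407294-1407393, minus strand; MRPL52, chr14:22829787-22829886, plus strand; MRPL53, chr2:74472681-74472780, minus strand; MRPS11, chr15:88467608-88467707, plus strand; MRPL55, chr1:228109300-228109399, minus strand; MRPL57, chr13:21176558-21176657, plus strand) and the 3 that rose (MRPS34, chr16:1773135-1773234, minus strand; MRPL22, chr5:154940973-154941072, plus strand; MRPL58, chr17:75012570-75012669, plus strand), with the motifs in capitals.
MRPL20: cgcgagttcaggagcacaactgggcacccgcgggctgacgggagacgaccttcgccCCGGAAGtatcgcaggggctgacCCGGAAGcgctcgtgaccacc
MRPL52: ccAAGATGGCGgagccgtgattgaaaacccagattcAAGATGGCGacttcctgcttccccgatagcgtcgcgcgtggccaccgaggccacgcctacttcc
MRPL53: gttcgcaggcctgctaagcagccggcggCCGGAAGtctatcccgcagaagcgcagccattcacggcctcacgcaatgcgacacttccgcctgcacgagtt
MRPS11: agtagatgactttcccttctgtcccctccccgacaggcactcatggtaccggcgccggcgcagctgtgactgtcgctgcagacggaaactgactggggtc
MRPL55: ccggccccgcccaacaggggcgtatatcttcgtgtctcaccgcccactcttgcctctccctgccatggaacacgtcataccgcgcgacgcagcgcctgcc
MRPL57: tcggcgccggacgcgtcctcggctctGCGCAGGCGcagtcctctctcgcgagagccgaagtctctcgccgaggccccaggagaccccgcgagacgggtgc
MRPS34: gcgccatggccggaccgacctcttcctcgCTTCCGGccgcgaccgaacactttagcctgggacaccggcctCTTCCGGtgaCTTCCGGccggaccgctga
MRPL22: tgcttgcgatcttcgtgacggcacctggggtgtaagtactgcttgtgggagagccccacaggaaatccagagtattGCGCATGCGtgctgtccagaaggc
MRPL58: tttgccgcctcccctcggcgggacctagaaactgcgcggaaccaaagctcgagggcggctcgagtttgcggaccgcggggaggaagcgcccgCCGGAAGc

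MRPL20 had 2 ETS matches in this stretch and MRPS34 had 3, MRPL52 had 2 YY1 matches, MRPL57 and MRPL22 had 1 NRF1 match each, and MRPL53 and MRPL58 had 1 ETS match each. Outside this stretch or across its end, MRPL20 also had 1 NRF1 match, and MRPL52, MRPL53 and MRPL58 had 1 ETS match each. MRPL22 had 1 YY1 and 1 E-box match there. MRPS11 and MRPL55 had 0 matches of the 4 motifs, in this stretch and in the whole window. So matches stood in promoters of genes that fell and of genes that rose. Over the whole 300 bases, 28 of 65 promoters of these genes (43.1%) held the ETS letters, against 10.7% of all 27305 promoters and 17.6% of those of 9559 tested genes with a row of their own. The YY1 letters were in 12 of 65 (18.5%), against 1.85% and 3.77%, the NRF1 letters in 12 of 65 (18.5%), against 8.05% and 13.9%, and the E-box in 6 of 65 (9.23%), against 7.43% and 10.1%. By outcome over both siRNAs, ETS letters were in 9 of 17 promoters of genes that fell, 4 of 5 of genes that rose and 15 of 43 of the rest. YY1 letters were in 2 of 17, 2 of 5 and 8 of 43. A match is a description of letters and no evidence of binding, and no match says only that these letters are not in this window.

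With siCyclin K#1 alone against the same siCtrl libraries, 25 of the 74 genes fell and 7 rose, against 18.3% and 27.1% of all tested genes. Their median log2 fold change was -0.14, and the median of all tested genes was 0.10. The median of all genes became -0.00 after median-ratio rescaling, and relative to it the median of the 74 was -0.24 as deposited, -0.26 after rescaling and -0.16 after quantile normalization. Rescaling changed the counts to 38 lower and 3 higher, and the shares of all tested genes to 22.7% and 22.4%. The fold of 1.5 at an adjusted p under 0.05 was reached by 8 of the 74 genes (27.9% of tested genes) and the study's thresholds by 0 (4.65% of tested genes). Besides MRPL20 (-1.06 ± 0.05) and MRPL55 (-0.62 ± 0.08), the largest falls were those of MRPL17, the row of MRPL12, and MRPL44. MRPL17 had 34.4, 32.4 and 22.9 FPKM in siCtrl and 16.8, 17.4 and 19.5 after siCyclin K#1, and fell by 0.72 ± 0.18 (adjusted p = 0.0095). Its control libraries were 1.502-fold apart, but lay above all siCyclin K#1 libraries. The row of MRPL12, which encodes a protein of the flexible stalk that also binds the mitochondrial RNA polymerase, had 45.3, 42.4 and 41.6 FPKM in siCtrl and 27.8, 27.1 and 26.3 after siCyclin K#1, and fell by 0.67 ± 0.04 (adjusted p = 2.8e-06). MRPL44, which has an RNase III-like fold, had 42.3, 40.9 and 38.1 FPKM in siCtrl and 25.3, 24.7 and 27.7 after siCyclin K#1, and fell by 0.64 ± 0.06 (adjusted p = 2e-05). Of the genes that rose, MRPS34 rose by 0.62 ± 0.15, MRPL22 by 0.52 ± 0.06, MRPS25 by 0.37 ± 0.07, MRPL58 by 0.25 ± 0.05 and MRPL16 by 0.19 ± 0.05 (adjusted p = 0.0096, 8.1e-05, 0.0021, 0.0044 and 0.015). None of these 5, which were picked for large changes in the same libraries, overlapped with siCtrl after siCyclin K#1. MRPL16, the smallest, had 16.9, 16.6 and 17.9 FPKM in siCtrl and 19.4, 18.9 and 20.3 after siCyclin K#1.

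With siCyclin K#2 alone, 19 genes fell and 12 rose, against 15.4% and 20.1% of all tested genes, with a median of -0.02 for the 74 and 0.02 for all tested genes. A fold change over 1.5 with an adjusted p under 0.05 was reached by 4 of the 74 (17.9% of tested genes) and the study's thresholds by 0 (1.91% of tested genes). The largest falls were those of MRPL52 (-0.83 ± 0.08), the rows of MRPL20 (-0.81 ± 0.05) and MRPL53 (-0.66 ± 0.06), MRPS11 (-0.48 ± 0.14) and MRPL57 (-0.46 ± 0.09), with adjusted p-values from 4e-06 to 0.026. The largest rises were those of MRPS34 (1.197 ± 0.15), MRPL21 (0.54 ± 0.07), MRPL58 (0.54 ± 0.05), MRPL22 (0.52 ± 0.06) and MRPL15 (0.34 ± 0.05), with adjusted p-values from 8e-05 to 0.0014. All of these 10 genes stood apart from siCtrl without overlap in the siCyclin K#2 libraries, but they were picked for large changes in the same libraries.

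**Figure D3:**
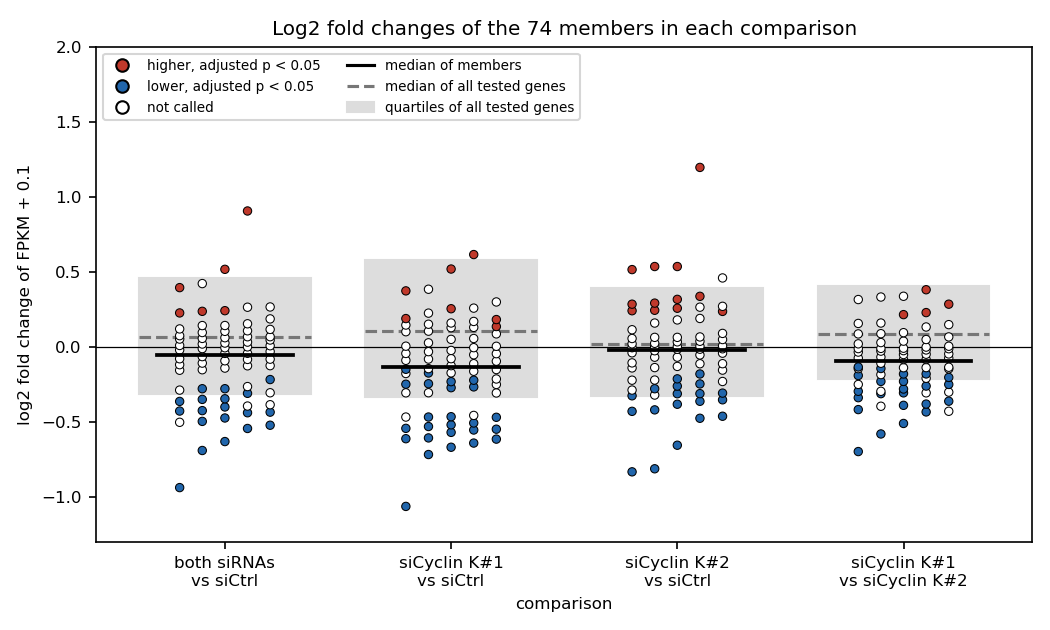
Log2 fold changes (of FPKM + 0.1) of the 74 genes in the 4 comparisons, each point a gene, filled red or blue where adjusted p was under 0.05; black lines are medians of the 74 genes, dashed lines medians and grey boxes quartiles of all tested genes. The median of the 74 lies below that of all tested genes in each comparison, from -0.02 to -0.14, and the first 3 comparisons share the siCtrl libraries.

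The siRNAs were also compared directly, since a call with one and not with the other does not show a difference. Of the 74 genes 23 were lower after siCyclin K#1 than after siCyclin K#2 and 4 were higher, against 12.5% and 17.4% of all tested genes. The median difference was -0.10 for the 74 and 0.08 for all tested genes. A fold change over 1.5 with an adjusted p under 0.05 was reached by 1 of them (13.4% of tested genes) and the study's thresholds by 0 (1.5% of tested genes). The largest difference was that of MRPL21 (ENSG00000197345, chr11:68891276-68903835, minus strand), with 11.4, 11.0 and 10.2 FPKM after siCyclin K#1, 16.3, 17.0 and 19.8 after siCyclin K#2, and 12.3, 11.9 and 12.2 in siCtrl. Thus the 3 groups did not overlap, after siCyclin K#1 lowest, and the difference between the siRNAs was -0.70 ± 0.07 (adjusted p = 0.00016). MRPS34 was lower after siCyclin K#1 by -0.58 ± 0.15 (adjusted p = 0.019) and MRPL44 by -0.51 ± 0.06 (adjusted p = 0.00019). MRPL44 had 36.8, 38.1 and 35.8 FPKM after siCyclin K#2, against siCtrl a difference of -0.13 (adjusted p = 0.11). MRPL27, the counterpart of a bacterial protein that reaches into the peptidyl transferase centre, was the gene that passed the test in opposite directions. It had 10.7, 10.2 and 10.6 FPKM in siCtrl, 9.64, 9.12 and 9.59 after siCyclin K#1 and 13.5, 12.3 and 12.6 after siCyclin K#2, with no overlap between groups. It fell by 0.15 ± 0.05 after siCyclin K#1 (adjusted p = 0.034), rose by 0.28 ± 0.05 after siCyclin K#2 (adjusted p = 0.0019), and the siRNAs differed by -0.43 ± 0.05 (adjusted p = 0.00023). The row of MRPS6 had 2.22, 2.32 and 2.45 FPKM after siCyclin K#1 and 3.01, 3.31 and 3.13 after siCyclin K#2 (difference -0.42 ± 0.07, adjusted p = 0.002). The count of genes higher after siCyclin K#1 was unstable: 1 without siCyclin K#1 replicate 1 or 2, 2 without siCyclin K#2 replicate 2, and 0 after median-ratio rescaling, which gave 28 lower. The share of all tested genes that were higher was 14.6%, 13.9%, 15% and 13.8% in these 4 fits, and 15.6% were lower after rescaling.

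**Figure D4:**
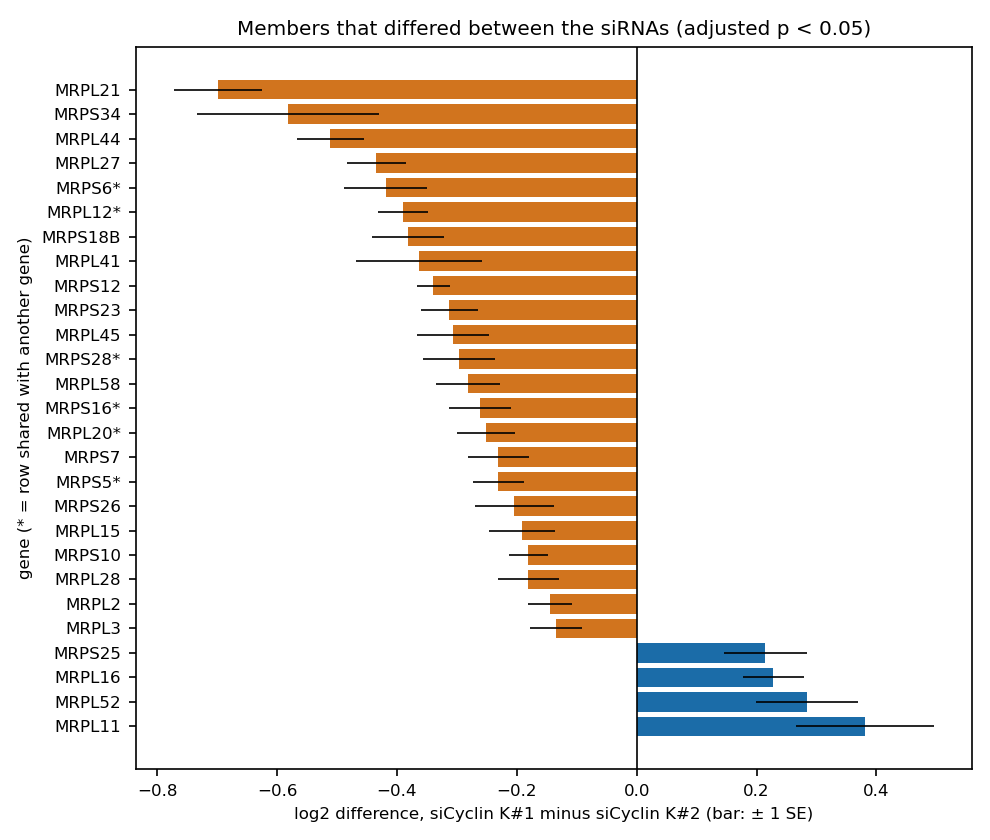
Log2 difference of siCyclin K#1 minus siCyclin K#2 (bars, with ± 1 SE) for the 27 genes with an adjusted p under 0.05. Orange bars to the left are the 23 genes that were lower after siCyclin K#1, led by MRPL21 at -0.70, and blue bars to the right are the 4 that were higher with it, led by MRPL11 at 0.38.

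MRPS18A, MRPS18B and MRPS18C are paralogs, related to a protein of the small subunit in bacteria. MRPS18A had 21.8 ± 0.58, 21.3 ± 2.73 and 21.2 ± 1.23 FPKM in siCtrl, siCyclin K#1 and siCyclin K#2, and no comparison passed. MRPS18B had 23.1 ± 1.52, 20.9 ± 1.14 and 27.2 ± 1.04, and the gene rose by 0.24 ± 0.06 after siCyclin K#2 (adjusted p = 0.014) and differed between the siRNAs by -0.38 ± 0.06 (adjusted p = 0.0015). MRPS18C stood lower at 4.13 ± 0.08, 3.71 ± 0.21 and 4.09 ± 0.15, with adjusted p-values of 0.078 or more in all 4 comparisons. MRPS18A and MRPS18B did not differ in siCtrl beyond their spread. Among the other rows joined with another gene, MRPL30, MRPL38, MRPL42, MRPS17 and MRPS24 passed in no comparison. MRPS5 (with ZNF514) and MRPS28 (with TPD52) rose after siCyclin K#2 by 0.26 ± 0.04 and 0.24 ± 0.06 (adjusted p = 0.0015 and 0.013).

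For 13 of the 74 genes (17.6%) replicates of some group lay more than 1.5-fold apart, against 19.2% of the 11245 tested genes whose mean FPKM reached 1, and of the 13 genes MRPS34 passed over both siRNAs. The genes named next were chosen after their values were seen. MRPL49 had 14.4, 8.08 and 3.96 FPKM in siCtrl, 4.22, 7.41 and 12.2 after siCyclin K#1, and 4.12, 6.31 and 15.3 after siCyclin K#2. MRPL10, which anchors the stalk, had 8.29, 20.3 and 20.1 in siCtrl, 10.8, 11.3 and 25.9 after siCyclin K#1, and 24.2, 24.7 and 9.84 after siCyclin K#2. Each group thus held high and low libraries of both genes. MRPL19 had 8.41 in siCtrl replicate 2 and 21.6 to 25.7 in the other 8 libraries. MRPL49 lies across genes of the opposite strand, FAU and SYVN1.

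Other genes of mitochondrial translation were set beside these by lists, to be read against the 11.7% of all tested genes that fell and the 17.3% that rose. Over both siRNAs, of 6 further genes listed with the mitoribosome 2 fell (33.3%) and 0 rose. AURKAIP1, a small subunit protein, fell by 0.46 ± 0.09 (adjusted p = 0.0044 with limma). OXA1L, not a ribosomal protein but one that inserts new proteins into the inner membrane, fell by 0.32 ± 0.07 (adjusted p = 0.0072 with limma). Of 13 translation factors 3 fell (23.1%) and 2 rose (15.4%). Ribosome recycling factor MRRF fell by 0.63 ± 0.10 (adjusted p = 0.0015), from 3.08 ± 0.16 FPKM to 2.11 ± 0.14 and 1.81 ± 0.06, and the release factor MTRF1L and the COX1 activator TACO1 fell by 0.40 ± 0.09 and 0.35 ± 0.08 (adjusted p = 0.0072 and 0.01), while the initiation factor MTIF3 rose by 0.32 ± 0.11 (adjusted p = 0.046). Of 32 genes for assembly of the particle and modification of its RNA 9 fell (28.1%) and 5 rose (15.6%). RCC1L rose by 1.27 ± 0.10 (adjusted p = 1.5e-05), from 4.12 ± 0.06 FPKM to 9.16 ± 0.30 and 11.1 ± 0.47, and the endoribonuclease YBEY rose by 0.68 ± 0.13 (adjusted p = 0.0041). The methyltransferase MRM3 and the RNA-binding FASTKD2 fell by 0.74 ± 0.13 and 0.58 ± 0.11 (adjusted p = 0.0024 and 0.003). Of 10 genes for mitochondrial transcription and DNA 3 fell (30%) and 0 rose: TFAM, which packages mitochondrial DNA, by 0.84 ± 0.07 (adjusted p = 2.6e-05), TEFM by 0.37 ± 0.09 and TFB2M by 0.19 ± 0.06 (adjusted p = 0.012 and 0.032). Of 11 nuclear regulators 0 fell and 1 rose (9.09%), PPRC1, by 0.26 ± 0.08 (adjusted p = 0.036).

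Genes for the ribosome of the cytosol and the mRNAs of the mitochondrial genome are given for orientation. Of 84 cytosolic ribosomal protein rows tested, 68 fell and 2 rose over both siRNAs, with a median log2 fold change of -0.49, where that of the mitochondrial ribosomal protein genes was -0.05. Of 7 rows of mitochondrially encoded mRNAs, the templates of the mitochondrial ribosome, 4 fell and 0 rose, with a median of -0.21. In the lists with 0 genes higher, the limma fit also gave 0 higher at an unadjusted p under 0.05, and among the regulators 1 was lower at that p. These lists differ in number and in level from the 74 genes, and the difference between lists was not tested.

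**Figure D5:**
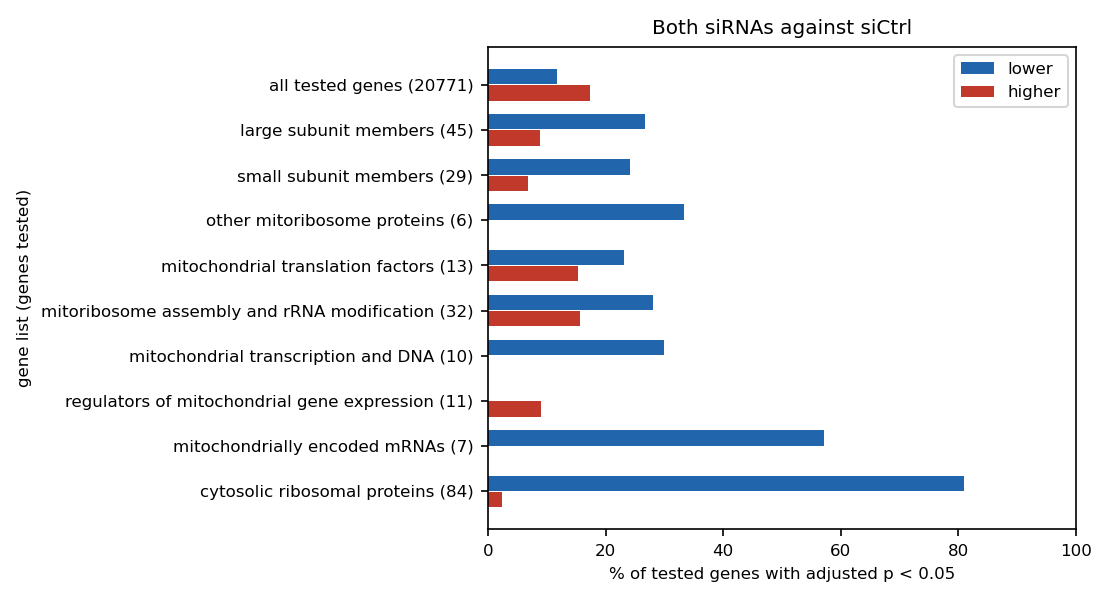
Percent of the tested genes of each list with an adjusted p under 0.05 over both siRNAs, lower (blue) and higher (red), with the number tested in parentheses. Of the large and small subunit genes 26.7% and 24.1% were lower, against 81% of the cytosolic ribosomal proteins and 11.7% of all tested genes.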

How the data were processed

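Total RNA of 9 A549 libraries was sequenced, and the groups were taken from the sample labels. The authors deposited FPKM for 56252 features per library, made with StringTie 1.3.3b. The aligner and annotation are not given in the sources used here. Features that name no reference gene (25125) were dropped, and rows of the same symbols were summed (30599 symbol sets). Coordinates are those of the files, and 73 of 74 were identical in GENCODE 29. Low FPKM values times exon length were whole multiples of 1 read, and 82.3 to 86.6% of nonzero values came out whole within 0.1 of a read. Of the 62 genes with a row of their own 48 were whole in all 9 libraries, at 268 to 3856 reads (median 1305.5). Such counts cover counting error only.

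The test was limma 3.58.1 (lmFit, eBayes with trend, R 4.3.3) on log2(FPKM + 0.1), with Benjamini-Hochberg adjustment over 20771 genes. Fold changes of low genes are understated on this scale. Both siRNAs together were 1 group against siCtrl, and single siRNAs were fitted as 3 groups with 1 shared spread. The exact permutation test used scipy 1.17.1. On simulated data for both siRNAs against siCtrl (19680 genes), 52 of 67 genes changed 1.5-fold, 55 of 67 changed 2-fold and 65 of 66 changed 3-fold were recovered, with 17 false calls. For siCyclin K#1 and siCyclin K#2 alone, 40 and 41 of 67 genes changed 1.5-fold were recovered. Only these few genes were changed, and the simulation over both held no difference between the siRNAs. The rates therefore need not hold for the real libraries.

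The members and gene lists were chosen with earlier results of these data known. Named genes were the 5 largest rises and falls with an adjusted p under 0.05 against siCtrl, the 5 largest differences between siRNAs, genes with opposite directions, the 3 highest and lowest in siCtrl, the MRPS18 paralogs, rows joined with another gene, CCNK, and at most 4 genes of each other list. The other genes that passed over both siRNAs are named with less detail. Alternatives were other pseudocounts, filters, scalings and groupings, no trend, a replicate block, the highest row per symbol, and leaving out each library.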

Additional observations from a re-analysis of the deposited data

Results flagged for a closer look

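Of the 74 genes, 6 had 1 library far from the others among the 6 siCyclin K libraries, where its gap to the nearest value exceeded 0.625 of the range. Chance flags about 1 group in 20, or 3.7 of 74, if the 6 values come from 1 population. Here they come from 2 siRNAs, between which 27 genes differed, so this rate is only a rough guide. After siCyclin K#2 replicate 1, MRPL18 had 40.5 FPKM (others 36.7 to 37.9), MRPL30 had 11.4 (others 4.56 to 5.47) and MRPL35 had 16.8 (others 19.7 to 21.2). After siCyclin K#2 replicate 3, MRPL34 had 14.97 (others 5.00 to 7.62). After siCyclin K#1, MRPL53 had 3.58 in replicate 2 (others 3.26 to 3.37) and MRPS17 had 10.4 in replicate 1 (others 6.49 to 7.31).

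The change against siCtrl differed between the siRNAs for 27 genes, by limma's test of the difference. Of the 74 genes 23 were lower (31.1%) and 4 higher (5.41%) after siCyclin K#1, beside 12.5% and 17.4% of all tested genes. In a fit of the 11245 genes whose mean FPKM reached 1, 24 of the 74 were lower and 6 higher. Of those 11245 genes, 22.7% were lower and 26.1% higher. Differences between the siRNAs were thus not confined to these genes. The differences (log2, siCyclin K#1 minus siCyclin K#2) not given above or only in part were -0.70 for MRPL21, -0.58 for MRPS34, -0.51 for MRPL44, -0.43 for MRPL27, -0.42 for MRPS6, -0.39 for MRPL12, -0.38 for MRPS18B, -0.36 for MRPL41, -0.34 for MRPS12, -0.31 for MRPS23, -0.31 for MRPL45, -0.30 for MRPS28 and -0.28 for MRPL58. They were -0.26 for MRPS16, -0.25 for MRPL20, -0.23 for MRPS7, -0.23 for MRPS5, -0.20 for MRPS26, -0.19 for MRPL15, -0.18 for MRPS10, -0.18 for MRPL28, -0.14 for MRPL2 and -0.13 for MRPL3. The other 4 were higher after siCyclin K#1: 0.21 for MRPS25, 0.23 for MRPL16, 0.28 for MRPL52 and 0.38 for MRPL11.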

How the results depend on the processing

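The log2 fold change over both siRNAs of the 74 genes was recomputed under 19 alternatives, 1406 values in all, of which 1271 kept direction and side of the threshold. For the 25 genes that passed, 54 of 475 values lost the call, in 11 genes, and 0 turned direction. For the 49 others, 15 of 931 values gained a call, in 10 genes, and 66 turned direction without one, in 25 genes. Of the genes named by rule that turned, median-ratio rescaling gave -0.0169 for MRPL38, -0.0513 for MRPS6, -0.0113 for MRPL16, -0.018 for MRPL27, -0.0404 for MRPS18B and -0.0583 for MRPS33. Quantile normalization gave -0.0508 for MRPL38, -0.103 for MRPS6, -0.00782 for MRPL27 and -0.1 for MRPS33. With 1 library left out, MRPL30 ranged from -0.541 to 0.0502, MRPL38 from -0.0234 to 0.186, MRPS6 from -0.0245 to 0.0865, MRPS18B from -0.00227 to 0.0989 and MRPS33 from -0.0169 to 0.0595.

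Genes higher over both siRNAs (6) were 2 after median-ratio rescaling, 3 without the trend, and 2 to 6 when 1 library was left out. The shares of all tested genes that were higher were 14.8%, 16.5% and 12.9 to 17.9% in these fits. Genes lower over both (19) were 12 to 21 when 1 library was left out, with 12 without siCtrl replicate 1. Of all tested genes, 7.92 to 11.9% were lower in these fits. After siCyclin K#1, rescaling gave 3 higher in place of 7 and 38 lower in place of 25 (22.4% and 22.7% of all tested genes). Genes higher after siCyclin K#1 than siCyclin K#2 (4) were 2 without a filter on low values, 0 after rescaling, 2 without the trend, and 1 to 4 when 1 library was left out. The shares of all tested genes that were higher were 11%, 13.8%, 16.7% and 13.9 to 17.2% in these fits. With the siRNAs fitted as separate groups, the comparison over both gave 9 higher and 22 lower (25.3% and 18.4% of all tested genes). The cause of these moves was not tested.

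Groups share replicate numbers in the labels, but deviations from the group means of libraries with the same number were unrelated (mean correlation -0.01 over 9 pairs and 11245 genes, from -0.07 to 0.04). With the replicate block, 3 genes were higher and 16 lower over both siRNAs (13.9% and 9.23% of all tested genes). The counts were 7 and 23 after siCyclin K#1 (26% and 17.7% of all tested genes) and 12 and 17 after siCyclin K#2 (19% and 14.6%). Between the siRNAs they were 3 and 19 (15.6% and 11.8%).

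Depth limits the low rows most: the fewest reads behind a gene with whole reads were 268.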

Other observations

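Across the 74 mitochondrial ribosomal protein genes, which share the same 9 libraries, the change over both siRNAs (log2) correlated at a Spearman rho of 0.30 with the length of the gene in the genome (n = 74) and of 0.26 among the 62 genes with a row of their own. The correlation with the summed exon length was 0.13 and that with the siCtrl level was -0.17 (n = 74). The files also hold 23 rows of pseudogenes named after these genes. The highest mean over the 9 libraries was 1.52 FPKM, for MRPL45P2, and the next was 0.445 for MRPL3P1. The parent genes MRPL45 and MRPL3 had 40.4 to 41.9 and 24.9 to 26.8 FPKM in siCtrl.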
